A study of Mus musculus with 3 samples.

Results

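The cells described here are otic epithelial cells of the mouse embryo that carried UMIs (unique molecular identifiers, 1 per captured transcript) of a set of 6 genes led by Gbx2 and Pou3f3. Barcodes were kept where 1000 or more genes were detected and mitochondrial UMIs made up no more than 10%. It was taken as otic epithelium with at least 1 UMI of Epcam, at least 2 UMIs summed over Fbxo2, Hmx2, Hmx3 and Pax2, and at most 1 UMI summed over the mesenchymal genes Prrx1 and Twist1. A Gbx2 Pou3f3 cell then had at least 1 UMI of 4 or more of the 6 marker genes Gbx2, Prr15, Pou3f3, Cntn5, Gchfr and Enc1. The rule found 1100 cells among 8518 otic cells and 26130 cells past the quality filter. It used measured UMIs, so the levels of these 6 genes and of the gate genes are given as description with no test.

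Otic vesicles, the epithelial sacs from which the inner ear forms, were pooled and dissociated at E10.5 for droplet-based 3' RNA sequencing. The library labelled CD came from Sox9 Y440X heterozygotes, which carry 1 copy of Sox9 with a premature stop codon in the transcription factor SOX9. A pair of libraries, WT replicates 1 and 2, came from wild-type vesicles of the same stage. The series title names opposing roles of SOX9 and Wnt and the control of endolymphatic development by SOX10. The 3 pools held 186439890, 157373393 and 202584468 UMIs over 12322, 8330 and 16649 barcodes in the order CD, WT replicate 1 and WT replicate 2, and all values in series follow this order. With 1 CD pool, the genotype cannot be told apart from that pool. The labels do not tell whether the WT pools came from separate litters. The p-values therefore rest on the spread between the WT pools, moderated across genes, and this spread may be technical. The single CD pool adds no spread of its own.

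The otic vesicle is patterned along its axes by signals from the hindbrain and the surrounding tissue. Wnt signals from the dorsal hindbrain act on its dorsal and medial wall, from which the endolymphatic duct and sac grow out. Gbx2, a homeobox transcription factor, is needed in mice for the endolymphatic duct, and Pou3f3 (Brn1) is a POU-domain transcription factor of neural and epithelial tissues. SOX9, SOX10 and SOX8 form the SOXE group of transcription factors and act in the otic epithelium, in cartilage and in the neural crest.

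The sequences just upstream of 4 genes are shown because Gbx2 and Pou3f3 name the cells, Sp5 led the genes outside the rule by its ratio to other otic cells, and Nrp2 rose most among the named genes in the CD library. Each is the 250 bases before the RefSeq start of the gene in build GRCm38.p6, matched by symbol. The intervals are chr1:89931177-89931426 (minus strand) for Gbx2, chr1:42695518-42695767 (plus strand) for Pou3f3, chr2:70474673-70474922 (plus strand) for Sp5 and chr1:62703067-62703316 (plus strand) for Nrp2. Capitals mark CTTTGAT, a sequence bound by the TCF and LEF factors of the Wnt pathway, searched on both strands.
Gbx2: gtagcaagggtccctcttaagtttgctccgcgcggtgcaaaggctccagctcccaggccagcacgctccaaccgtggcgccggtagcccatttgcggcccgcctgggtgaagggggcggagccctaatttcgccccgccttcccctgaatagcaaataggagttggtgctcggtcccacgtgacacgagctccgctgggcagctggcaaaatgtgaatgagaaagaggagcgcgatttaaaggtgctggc
Pou3f3: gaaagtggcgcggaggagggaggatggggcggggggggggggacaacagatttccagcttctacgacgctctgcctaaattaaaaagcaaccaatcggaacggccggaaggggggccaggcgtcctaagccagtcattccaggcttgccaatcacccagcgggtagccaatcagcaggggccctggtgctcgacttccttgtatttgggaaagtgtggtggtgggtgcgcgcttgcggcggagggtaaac
Sp5: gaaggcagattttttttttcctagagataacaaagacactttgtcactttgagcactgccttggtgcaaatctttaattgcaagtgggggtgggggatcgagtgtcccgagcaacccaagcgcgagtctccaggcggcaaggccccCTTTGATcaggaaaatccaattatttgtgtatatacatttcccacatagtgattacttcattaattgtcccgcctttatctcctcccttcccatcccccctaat
Nrp2: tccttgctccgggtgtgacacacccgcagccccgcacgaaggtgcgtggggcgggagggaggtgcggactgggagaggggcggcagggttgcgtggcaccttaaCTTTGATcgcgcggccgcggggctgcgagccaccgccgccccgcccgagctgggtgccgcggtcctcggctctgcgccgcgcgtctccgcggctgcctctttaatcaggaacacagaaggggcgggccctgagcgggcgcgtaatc
The motif lay 104 to 98 bases before the start of Sp5 and 146 to 140 bases before that of Nrp2. It had no match in these windows of Gbx2 and Pou3f3. Over all 32851 promoter windows of this length, 3.21% held it. The motif and the genes shown were chosen after values had been seen, and a match is a description of letters only. A sequence of the SOX type, ACAATGG, searched in the same way, was in 3.02% of all windows and in none of these 4.

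Gbx2 Pou3f3 cells numbered 430, 406 and 264 in the 3 libraries, among 2579, 2430 and 3509 otic cells. Their share of otic cells was 16.7% (95% exact binomial interval 15.3% to 18.2%) in CD, 16.7% (15.2% to 18.3%) in WT replicate 1 and 7.52% (6.67% to 8.45%) in WT replicate 2. The CD share was thus level with 1 WT library and above the other, and the WT libraries lay farther apart than CD from their mean. The ratio of CD to the WT mean was 1.38. It was 2.22 against WT replicate 2 alone and 0.998 against WT replicate 1 alone, and 1 against 2 libraries cannot give a permutation p below 0.333. The intervals cover counting error only.

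The rule counts detected genes, so it takes in deeper cells. The median depth of Gbx2 Pou3f3 cells was 27868.5, 32083 and 26282.5 UMIs, against 20531, 23357 and 17316 UMIs in the other otic cells. Each cell past the quality filter was thinned to 10000 UMIs, with shallower cells left out, and the whole rule was applied again. Then 96, 80 and 66 cells met it. They made up 5.79%, 4.99% and 2.68% of the 1659, 1604 and 2459 cells that passed the otic gate after thinning. WT replicate 2 remained the lowest. At 5000 UMIs only 15, 13 and 13 cells met the rule (1.43%, 1.41% and 0.731%). Scrublet, a doublet caller, marked 3.72%, 3.69% and 4.55% of Gbx2 Pou3f3 cells and 2.05%, 2.17% and 2.28% of the other otic cells. None of these cells shared its barcode with a Gbx2 Pou3f3 cell of another library.

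Marker detection formed a slope and not separate classes. Otic cells with 0, 1, 2, 3, 4, 5 and 6 of the marker genes numbered 881, 606, 382, 280, 210, 138 and 82 in CD. In WT replicate 1 they numbered 815, 589, 380, 240, 200, 135 and 71, and in WT replicate 2 1563, 929, 493, 260, 139, 92 and 33. In each library the number fell at every step, with no second peak above the threshold of 4. Cells with exactly 4 markers made up 48.8%, 49.3% and 52.7% of the Gbx2 Pou3f3 cells. UMIs of both Gbx2 and Pou3f3 were found in 57.4%, 54.4% and 50.4% of them, so a large share met the rule through 1 of these genes and the others.

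**Figure D1:**
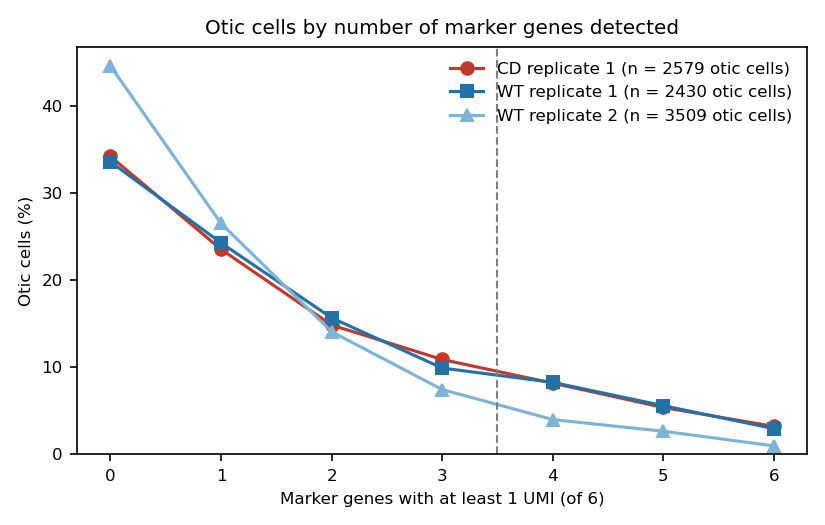
Share of otic cells (%, vertical axis) by the number of the 6 marker genes with at least 1 UMI (horizontal axis), 1 line per library, with a dashed line at the threshold of the rule. All 3 lines fall from left to right, and WT replicate 2 lies below the other libraries from 2 markers on.

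Levels are given as CPM, the UMIs of a gene per 1000000 UMIs summed over the cells of a population in a library. Gbx2 stood at 124.5, 95.4 and 78.5 CPM in Gbx2 Pou3f3 cells and at 27.7, 20.3 and 20.02 CPM in the other otic cells. Pou3f3 stood at 90.7, 78.4 and 98.4 CPM against 15.5, 13.3 and 14.9 CPM. Prr15, a gene for a proline-rich protein, stood at 87.1, 103.9 and 65.7 CPM against 14.0, 15.6 and 9.82 CPM. These separations are set by the rule. Among the other markers, Cntn5, a contactin of the immunoglobulin superfamily, reached 56.2, 36.2 and 65.3 CPM. Gchfr, the feedback regulator of GTP cyclohydrolase in tetrahydrobiopterin synthesis, reached 55.2, 46.3 and 71.0 CPM. Enc1, a kelch-repeat protein that binds actin, reached 76.3, 68.5 and 69.9 CPM and was the marker with the least spread between libraries. Pou3f3 is not particular to otic epithelium in these pools: 35.6%, 37.0% and 29.5% of cells gated as mesenchyme (at least 3 UMIs of Prrx1 and Twist1) had a UMI of it, against 73.3%, 75.1% and 82.6% of Gbx2 Pou3f3 cells. For Gbx2 the mesenchyme share was 1.40%, 1.24% and 1.61%.

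Among 6264 genes outside the rule with at least 20 CPM in the higher population, 12 (0.192%) were at least 2-fold higher in Gbx2 Pou3f3 cells than in other otic cells within every library. Ranked by the library where the ratio was smallest, Sp5, Smoc1 and Vav3 led. Sp5, a zinc finger factor induced by Wnt/beta-catenin signalling, stood at 62.3, 58.3 and 56.2 CPM against 16.7, 18.8 and 15.2 CPM. Smoc1, a secreted calcium-binding matrix protein that modulates BMP signalling, stood at 28.0, 33.6 and 34.4 CPM against 5.33, 11.93 and 12.004 CPM. Vav3, a guanine nucleotide exchange factor, stood at 44.6, 46.1 and 43.5 CPM against 16.4, 16.4 and 13.5 CPM. Since the cells were chosen on UMIs of the same cells, these ratios carry no test.

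Several others of the 12 are regulators of transcription, growth and adhesion. Pantr1, a long noncoding RNA whose gene neighbours Pou3f3 in the RefSeq annotation, stood at 40.7, 37.0 and 46.6 CPM against 15.2, 13.0 and 13.3 CPM. Rmst, a long noncoding RNA that binds SOX2, stood at 53.4, 24.3 and 25.2 CPM against 12.7, 8.75 and 10.4 CPM. Sall1, a zinc finger repressor, stood at 43.4, 38.6 and 45.8 CPM against 16.5, 17.7 and 18.1 CPM. In each case the lowest Gbx2 Pou3f3 value exceeded the highest value of the other cells, which the choice of 2-fold genes makes likely in advance. Cdkn1a, which encodes the cell cycle inhibitor p21, had the highest level of the set, at 203, 177 and 190 CPM against 77.4, 77.5 and 92.6 CPM. Kit, the receptor for stem cell factor, stood at 38.8, 46.8 and 37.7 CPM against 18.1, 20.5 and 16.7 CPM. Cdh4, a classical cadherin, stood at 56.8, 50.4 and 59.2 CPM against 22.5, 17.4 and 20.6 CPM. The remaining 2-fold higher genes were Stx7, a syntaxin of endosomes, Cttnbp2, a cortactin-binding protein, and Fam184a.

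In the other direction, 37 genes (0.591%) were at least 2-fold lower in every library. The T-box factor Tbx1 stood at 27.3, 36.0 and 29.0 CPM against 151, 156 and 143 CPM, and Tbx3 at 19.5, 25.4 and 26.3 CPM against 77.7, 79.6 and 78.5 CPM. Otx1, a homeobox factor of the ventral and posterolateral otocyst, stood at 10.17, 10.51 and 5.41 CPM against 44.4, 40.3 and 33.8 CPM. These genes of the posterolateral wall were low in all 3 libraries alike. Bmp4, a ligand of the prospective cristae and the dorsal otocyst, stood at 17.0, 7.03 and 9.11 CPM against 80.5, 43.5 and 45.5 CPM. Spp1 (osteopontin) stood at 15.8, 9.84 and 5.28 CPM against 97.6, 72.1 and 58.4 CPM. Oc90, the main protein of the otoconial matrix, stood at 25.7, 158 and 240 CPM against 101, 641 and 1139 CPM. For Oc90 the ratio held within each library, while its level differed between the libraries by more than the ratio.

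The other leading genes on the low side came from several groups. Isl1, a LIM homeobox factor of prosensory and neuronal cells, stood at 28.7, 19.7 and 30.5 CPM against 116, 71.2 and 87.2 CPM. Cyp26a1, which breaks down retinoic acid, stood at 3.54, 6.63 and 3.96 CPM against 27.8, 27.6 and 23.2 CPM. Irx1, an Iroquois homeobox factor, stood at 15.9, 18.1 and 12.4 CPM against 70.3, 75.3 and 61.6 CPM. Plxna4, a semaphorin coreceptor, Tgfb2, a TGF-beta ligand, and Meis1, a TALE homeobox factor, were also among the 15 lowest ratios, with Kcnq3, Prrx2 and Adamts9. On fixed gene lists, 4 of 7 posterolateral genes with at least 20 CPM were 2-fold lower in every library. The same held for 1 of 5 ventral prosensory and neurogenic genes (median log2 ratio -0.34). It also held for 1 of 5 otoconial and acellular matrix genes (median -0.47) and 0 of 6 cartilage matrix genes (median -0.18). Only the posterolateral list was thus low for most of its genes among these.

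**Figure D2:**
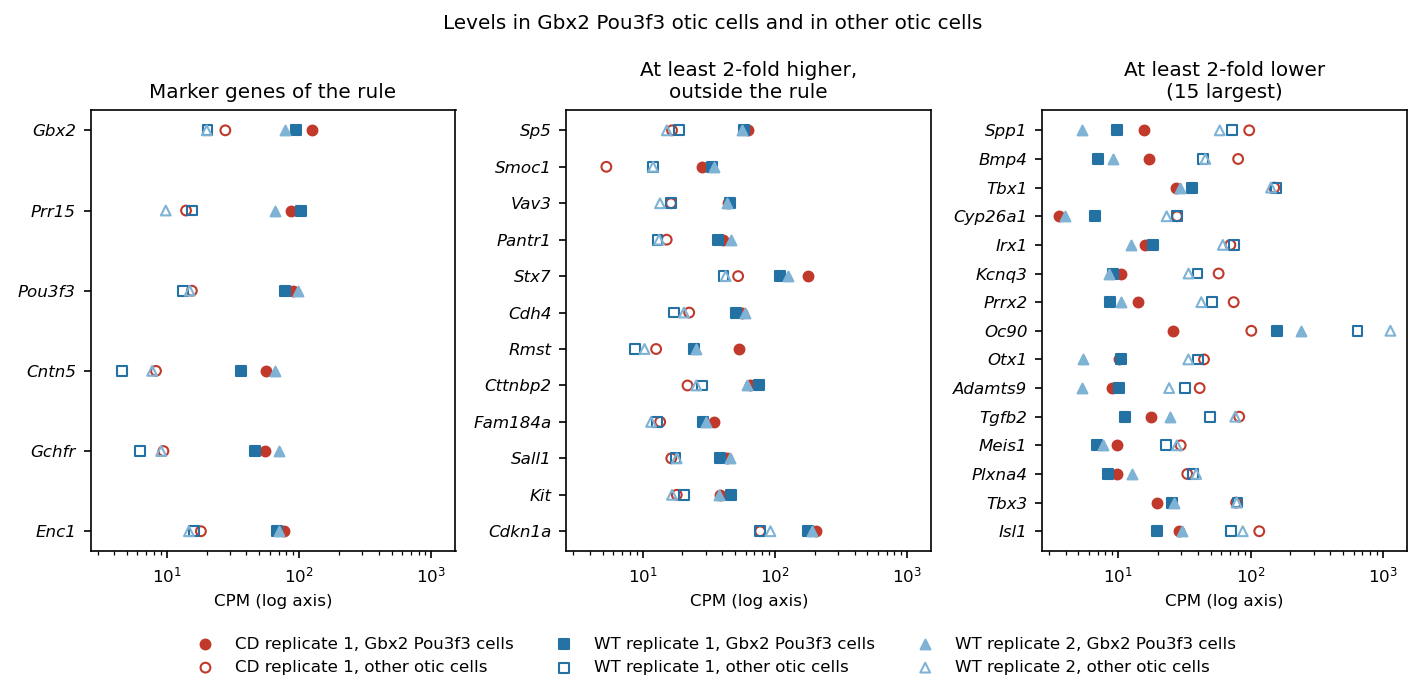
CPM on a log axis in Gbx2 Pou3f3 cells (filled symbols) and other otic cells (open symbols), 1 symbol shape per library, for the 6 marker genes, the 12 genes outside the rule at least 2-fold higher in every library and the 15 named genes at least 2-fold lower. Filled and open symbols do not overlap in the left and middle panels, whose genes set the rule or were chosen by their ratio. The Oc90 row is spread most widely, from 25.7 to 1139 CPM.

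The label of these cells as dorsomedial was checked against lists of otic domain genes, with the rule genes left out. On the medial list 8 genes had at least 20 CPM, and none was 2-fold higher or lower in every library. Their median log2 ratio to other otic cells was 0.32, against 0.02 over all genes of that level. Dach1, a cofactor of the Pax-Six-Eya network, stood at 192, 173 and 151 CPM against 149, 122 and 110 CPM, and its relative Dach2 at 67.2, 52.6 and 49.4 CPM against 35.0, 25.2 and 28.1 CPM. On the posterolateral list 4 of 7 genes (Tbx1, Tbx3, Otx1 and Otx2) were at least 2-fold lower, with a median of -1.65. On the dorsal list 0 of 9 were 2-fold higher and 1 (Bmp4) was 2-fold lower, with a median of -0.69. Dorsal genes were divided: Lmx1a, a LIM homeobox factor of the otic roof, stood at 158, 145 and 140 CPM against 102, 94.5 and 91.3 CPM. Dlx5, a distal-less homeobox factor, differed little, at 123, 106 and 85.2 CPM against 107, 99.95 and 92.9 CPM. Msx2, a homeobox target of BMP signals, stood at 28.5, 13.9 and 12.9 CPM against 56.8, 35.5 and 34.6 CPM, and Gas1, a hedgehog coreceptor, at 211, 258 and 223 CPM against 389, 397 and 376 CPM. The dorsal part of the label is therefore not borne out by the list as a whole, and the cells are called by their leading genes.

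Signalling genes followed the same division. Of 13 BMP pathway genes, 3 (Bmp4, Id1 and Id3) were at least 2-fold lower and 0 higher, with a median log2 ratio of -0.62. Id3, an inhibitor of bHLH factors that is a target of BMP signals, stood at 214, 281 and 226 CPM against 584, 619 and 616 CPM. Of 8 Wnt/beta-catenin targets, Sp5 was at least 2-fold higher and 0 were lower, with a median of 0.27. Axin2, a negative-feedback target of the pathway, stood at 59.6, 44.3 and 33.5 CPM against 37.5, 30.4 and 25.96 CPM, whereas the TCF family member Lef1 stood lower, at 48.6, 33.1 and 35.0 CPM against 65.7, 45.8 and 40.9 CPM. Of 3 Wnt ligand and R-spondin genes, 0 were 2-fold apart in every library, and the median was -0.69. Wnt6, on that list, went against this median, at 99.3, 96.2 and 82.9 CPM against 53.6, 40.0 and 41.4 CPM. Of 9 FGF pathway genes, 0 were 2-fold apart and the median was 0.34. The FGF feedback inhibitor Il17rd (Sef) stood at 82.2, 73.3 and 75.6 CPM against 47.8, 45.2 and 40.1 CPM, and Spred1 at 87.4, 96.1 and 83.7 CPM against 59.1, 59.9 and 52.1 CPM. None of 5 measured tetrahydrobiopterin genes other than Gchfr was 2-fold apart, and Spr, which makes tetrahydrobiopterin, stood at 52.8, 61.7 and 57.8 CPM against 49.9, 50.8 and 56.5 CPM. The POU gene Pou2f1 stood at 56.6, 48.3 and 46.3 CPM against 50.0, 46.9 and 42.4 CPM.

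Cells just outside and just inside the threshold differed by steps of unequal size. At 3 and 4 marker genes Sp5 stood at 41.1, 48.7 and 40.1 CPM and at 57.4, 58.1 and 50.2 CPM. Tbx1 stood at 48.5, 43.0 and 40.5 CPM and at 38.5, 39.0 and 34.6 CPM. The step was larger in both WT libraries for Nrp2, a receptor for class 3 semaphorins, from 220, 111 and 80.8 CPM to 182, 54.9 and 51.3 CPM. Likewise Runx1t1 went from 71.2, 32.7 and 24.0 CPM to 48.4, 14.1 and 16.2 CPM, and Bmp4 from 25.4, 22.3 and 14.1 CPM to 26.1, 5.35 and 13.1 CPM, the latter with a large step in WT replicate 1 alone. From 0 to 6 markers Tbx1 went from 234, 234 and 201 CPM to 13.8, 36.8 and 28.6 CPM, most of the fall lying below the threshold. Over the same span Pantr1 went from 4.95, 6.47 and 6.56 CPM to 55.3, 48.9 and 55.5 CPM. Oc90 went from 136, 791 and 1483 CPM to 5.60, 78.3 and 221 CPM. Nrp2 had its highest level at 2 and 3 markers in place of either end: 231, 89.0 and 119 CPM at 2 and 220, 111 and 80.8 CPM at 3. All strata share the 3 libraries, so they do not replicate each other.

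**Figure D3:**
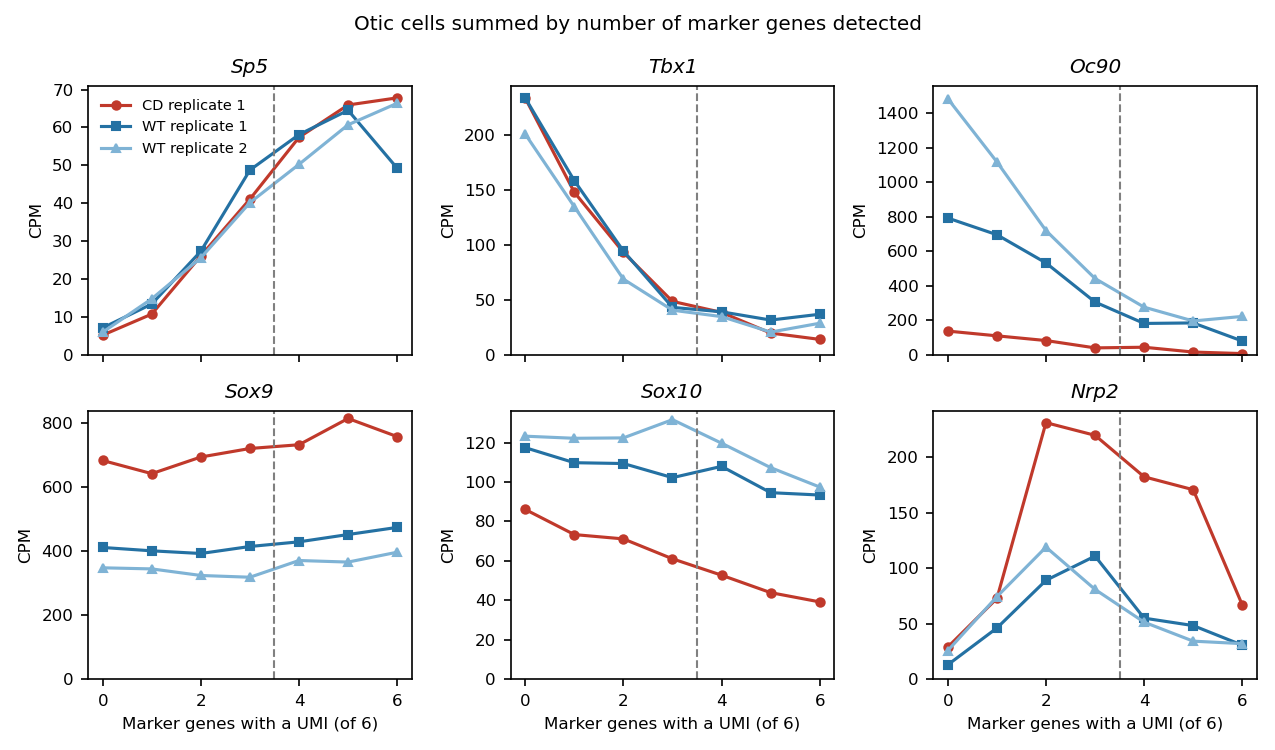
CPM (vertical axes, linear) of 6 genes in otic cells summed by the number of marker genes with a UMI (horizontal axes), 1 line per library, with a dashed line at the threshold. Sp5 rises and Tbx1 and Oc90 fall with marker number; the CD line lies above both WT lines for Sox9 and below both for Sox10 at all 7 marker numbers.

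In the CD library Sox9 itself was high. Gbx2 Pou3f3 cells held 763 CPM of Sox9 in CD against 447 and 373 CPM in WT replicates 1 and 2, a log2 change of 0.84 with SE 0.13 and an edgeR adjusted p of 0.00297. The other otic cells held 679, 405 and 340 CPM (0.81, SE 0.15, edgeR adjusted p = 0.0354). The 3' counts do not tell the alleles apart, so this level does not check the genotype. CD lay above both WT libraries at all 7 marker numbers.

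Sox10 and Sox8, the other SOXE genes, were low in CD in the same cells. Sox10 stood at 47.0 CPM in CD against 100.2 and 112 CPM in WT (log2 change of -1.22 with SE 0.16, edgeR adjusted p = 0.000525). Sox10 was detected (at least 1 UMI) in 62.1% of CD cells against 92.1% and 89.0% of WT cells. After each cell was thinned to 5000 UMIs the shares were 16.5% against 36.5% and 45.5%, with 1.16%, 1.19% and 3.19% in mesenchyme as the background. Sox8 stood at 5.82 CPM against 16.5 and 17.4 CPM (-1.59, SE 0.24, edgeR adjusted p = 0.00261). With cells thinned to 10000 UMIs and chosen again, the log2 changes of Sox10 and Sox8 were -1.06 and -1.08, and neither passed. Sox8 was also not called with DESeq2. Both calls held under the other settings in which they were tested. The SOXB1 gene Sox2, a prosensory factor, stood at 121 CPM against 118 and 97.6 CPM and did not pass (0.11, SE 0.15, edgeR adjusted p = 0.999). Of 16 SOX family genes tested, Sox9 rose, Sox10 and Sox8 fell and the other 13 did not pass.

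Of 14080 genes tested in Gbx2 Pou3f3 cells, 66 (0.469%) changed, 27 (0.192%) higher and 39 (0.277%) lower in CD at an edgeR adjusted p under 0.05, with 739 at an unadjusted p under 0.05 where 704 would be expected from uniform p-values. DESeq2 called 7 higher and 22 lower, all among the same 66 genes. Of the 66, 20 were called under at least 8 of 10 other settings and 31 under at least 5, so single genes differ in how firm their call is. All 66 kept their direction against each WT library alone. The test has 1 residual degree of freedom, from the WT pair, and takes the single CD pool to vary as the WT pools do.

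Several genes of the otoconial and acellular matrix fell in CD. Of 12 otoconial and acellular matrix genes tested, 5 fell and 0 rose, with a median log2 fold change of -1.25 against 0.00 over all genes, and 10 lay below both WT libraries (24.1% of all genes did). Oc90 stood at 25.7 CPM in CD against 158 and 240 CPM (log2 change of -3.00 with SE 0.22, edgeR adjusted p = 1.07e-06). Cnmd (chondromodulin, a cartilage membrane protein) stood at 5.09 CPM against 42.5 and 36.2 CPM (-3.01, SE 0.22, edgeR adjusted p = 1.07e-06). In both genes the lower WT value lay several times above the CD value. Otol1 (otolin, a collagen-like scaffold of otoconia) stood at 31.0 CPM against 56.2 and 71.3 CPM (-1.08, SE 0.18, edgeR adjusted p = 0.00581). The collagen IX chains Col9a3 (31.7 against 72.3 and 92.1 CPM) and Col9a1 (58.7 against 106 and 117 CPM) fell by 1.42 and 0.98 on the log2 scale. Of 11 genes tested on the cartilage list, 3 fell and 0 rose (Cnmd, Col9a3 and Col9a1, also on the other list), with a median of -0.38. Col2a1, the main cartilage collagen, stood at 501 CPM against 431 and 434 CPM and did not pass (0.16, SE 0.12). Oc90 also had UMIs in mesenchyme, at 1.71, 7.72 and 32.0 CPM and in 3.40%, 14.8% and 40.6% of those cells, with the libraries in the same order there. The part of free RNA in its level was not tested.

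Other genes that fell were of varied function. Fxyd3, a regulator of the sodium pump, stood at 4.94 CPM against 33.6 and 29.0 CPM (-2.72, SE 0.23, edgeR adjusted p = 3.06e-06), and was the 1 gene of 10 tested on the endolymphatic and ion transport list that changed. Wnt7b, a Wnt ligand, stood at 16.7 CPM against 35.6 and 44.6 CPM (-1.31, SE 0.19, edgeR adjusted p = 0.00226). Sfrp1, a secreted Wnt antagonist, stood at 110 CPM against 201 and 194 CPM (-0.90, SE 0.14, edgeR adjusted p = 0.00297). CD lay below both WT libraries at all 7 marker numbers for Cnmd, Col9a3, Wnt7b and Sfrp1, which were chosen as genes that fell in these cells. Sphk1, which makes sphingosine 1-phosphate, fell by 1.77 and the tyrosine phosphatase gene Ptpre by 2.03 on the log2 scale. Bricd5 and Cuedc2 fell by 2.19 and 1.25. Cited1, a transcriptional coactivator gene, fell by 1.25 (edgeR adjusted p = 0.0406), a call held under 1 of 9 other settings.

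Nrp2 led the rise among the named genes. It stood at 153 CPM in CD against 47.1 and 42.6 CPM in WT (log2 change of 1.71 with SE 0.14, edgeR adjusted p = 3.06e-06). Nrp2 was detected in 57.2% of CD cells against 38.7% and 35.2% of WT cells, and in 31.2% against 14.0% and 14.8% after thinning to 5000 UMIs. Mesenchyme, which held 61.8, 57.1 and 55.6 CPM of Nrp2, differed little between the libraries. Runx1t1, a corepressor gene of the ETO family, stood at 41.1 CPM against 13.3 and 12.1 CPM (1.63, SE 0.18, edgeR adjusted p = 0.000111). With cells thinned to 10000 UMIs and chosen again, the log2 changes of Nrp2 and Runx1t1 were 0.98 and 0.56, and neither passed. Both calls held under the other settings in which they were tested. Of 29 guidance and adhesion genes tested, Nrp2 and the ephrin receptor gene Epha3 rose and 0 fell. Epha3 stood at 14.6 CPM against 3.82 and 5.94 CPM. The Epha3 call held under 3 of 9 other settings. Pcdh19, a protocadherin, stood at 92.5 CPM against 47.5 and 42.0 CPM (0.99, SE 0.15, edgeR adjusted p = 0.00245). Rmst, one of the 12 genes high in these cells, stood at 53.4 CPM against 24.3 and 25.2 CPM (1.06, SE 0.16, edgeR adjusted p = 0.00245).

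Some genes of the BMP and Wnt lists were among those that rose. Msx1, a homeobox target of BMP signals, stood at 35.4 CPM against 14.5 and 14.9 CPM (log2 change of 1.22 with SE 0.18, edgeR adjusted p = 0.00202), and lay above both WT libraries at all 7 marker numbers. Msx2 stood at 28.5 CPM against 13.9 and 12.9 CPM (1.03, SE 0.19, edgeR adjusted p = 0.0142). Fst (follistatin, which binds activin and some BMPs) stood at 30.5 CPM against 17.6 and 13.3 CPM (0.91, SE 0.19, edgeR adjusted p = 0.0465). These were the 3 of 19 BMP pathway genes tested that changed, and the list had a median log2 fold change of 0.31. Of the 19, 12 lay above both WT libraries and 2 below both, where 42.6% and 24.1% of all genes did. Id3, a target of BMP signals, was lower in CD than in both WT libraries and did not pass. The ligand Bmp4 stood at 17.0 CPM against 7.03 and 9.11 CPM without passing (1.05, SE 0.24, edgeR adjusted p = 0.0714). Msx2 and Fst turned direction when cells were thinned to 10000 UMIs and chosen again (-0.40 and -0.35), and were called under 4 and 2 of 9 other settings. Msx1 kept its direction but was not called with DESeq2, at 3 or more markers or at 10000 UMIs.

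Of 16 Wnt/beta-catenin targets tested, 2 (Notum and Msx2, the latter also on the BMP list) rose and 0 fell. The median log2 fold change was 0.48, and 13 lay above both WT libraries, where 42.6% of all genes did. In other otic cells the median was 0.41. Summed over the 18 genes of the list, however, the level in Gbx2 Pou3f3 cells was lowest in CD, at 1282.2 CPM against 1375.5 and 1323.2 CPM. Notum, a Wnt-inactivating enzyme that is itself a Wnt target, stood at 17.8 CPM against 7.23 and 4.35 CPM (1.52, SE 0.27, edgeR adjusted p = 0.0120), a call held under 3 of 9 other settings. Sp5, high in these cells in all libraries, did not pass (0.07, SE 0.15, edgeR adjusted p = 0.999). Axin2 stood at 59.6 CPM against 44.3 and 33.5 CPM. Rspo3, a secreted enhancer of Wnt signalling, stood at 122 CPM against 56.7 and 81.2 CPM and missed the threshold (0.78, SE 0.17, edgeR adjusted p = 0.0591). None of 14 Wnt receptor genes passed. Of the 10 Wnt antagonists tested, Notum rose and Sfrp1 fell.

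The named rises were completed by Cpm, St3gal1, Maoa and Frrs1. Frrs1, a ferric reductase gene, stood at 157 CPM against 88.1 and 83.9 CPM (0.82, SE 0.14, edgeR adjusted p = 0.00651). Maoa (monoamine oxidase A) stood at 48.1 CPM against 25.0 and 26.7 CPM (0.85, SE 0.16, edgeR adjusted p = 0.0208), a call held under 3 of 9 other settings. The calls of Cpm (carboxypeptidase M, edgeR adjusted p = 0.0465) and St3gal1 (a sialyltransferase, edgeR adjusted p = 0.0473) held under 2 and 1 of 9 other settings. Other lists had few or no calls. None of 20 FGF, 18 Notch, 15 retinoic acid, 11 hedgehog, 11 medial, 10 posterolateral or 12 ventral genes passed. Of the marker genes of the rule, the CD value lay above both WT values for Gbx2 and Enc1 and between them for Pou3f3, Cntn5, Gchfr and Prr15.

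**Figure D4:**
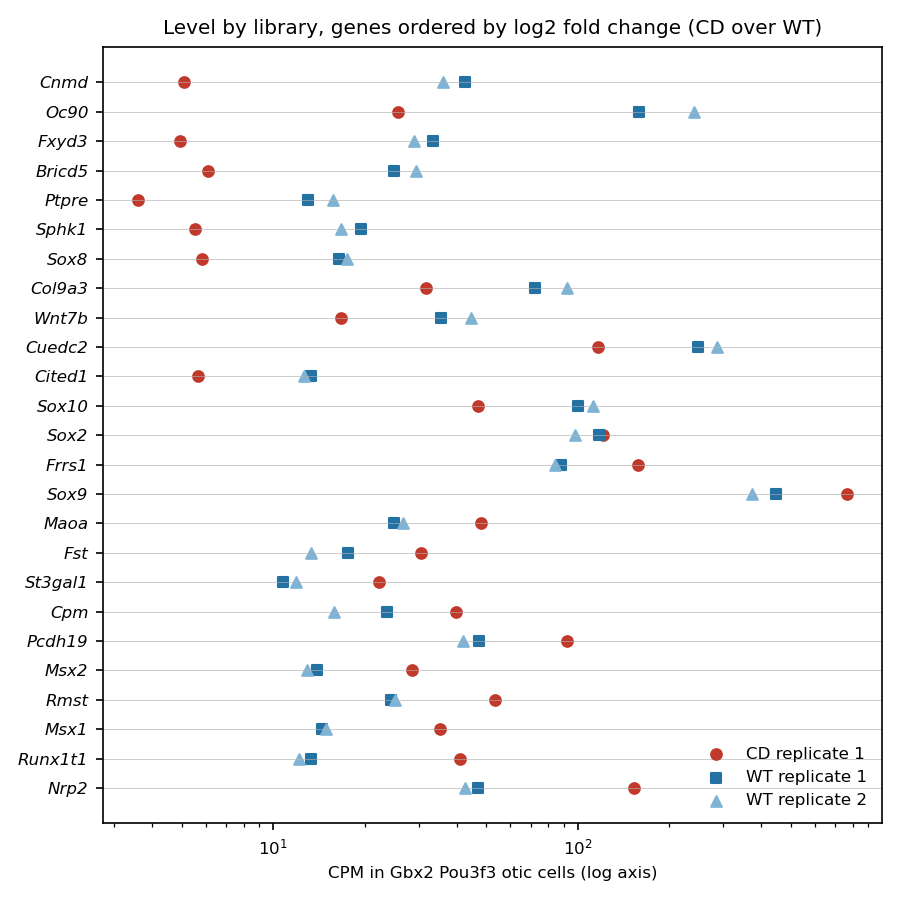
CPM on a log axis in Gbx2 Pou3f3 cells, 1 symbol per library, for the named genes that passed in each direction together with Sox10 and Sox2, ordered by log2 fold change. The passing genes were chosen to differ from each WT library by more than the WT libraries differ, so their CD symbols lie apart by that choice. Sox10 and Sox2 were named apart from it: the CD symbol of Sox10 also lies apart, and the Sox2 values run from 97.6 to 121 CPM.

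The other otic cells of the same 3 libraries give a second reading of the CD pool, not an independent one. There 50 (0.302%) of 16582 genes were called, 16 higher (0.0965%) and 34 lower (0.205%). Of the 66 genes called in Gbx2 Pou3f3 cells, 65 had the same direction in the other otic cells and 22 were called there too. The change was larger in Gbx2 Pou3f3 cells for 55 of them, but the 66 were chosen by their values in those cells. Most of the named changes are therefore not particular to Gbx2 Pou3f3 cells in direction. Oc90 fell by 3.00 in Gbx2 Pou3f3 cells and 3.19 in the others on the log2 scale, and Cnmd by 3.01 and 2.52. Fst differed in sign, at 30.5, 17.6 and 13.3 CPM in Gbx2 Pou3f3 cells and 23.1, 23.9 and 46.2 CPM in the others. The test of that difference gave an edgeR adjusted p of 0.315, between 6.17e-22 and 1.00 over 8 other settings.

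The test of the difference between the populations, with the library as a block, called 0 of 16153 genes in edgeR, where 735 had an unadjusted p under 0.05. DESeq2 also called 0. The edgeR test called 44 with cells of at least 3 markers, 86 with at least 5 and 100 with no gene filter, so this result depends on the setting. Sox10 stood at 75.3, 111 and 124 CPM in the other otic cells and its log2 fold change there was -0.70 (SE 0.16), a difference of -0.52 (SE 0.08, edgeR adjusted p = 0.126). For Nrp2 the difference was 0.76 (SE 0.12, edgeR adjusted p = 0.126). Sox10 and Nrp2 passed this test under 4 and 3 of 8 other settings, with an adjusted p of up to 1.00 in the rest (lowest 1.09e-05 and 1.33e-14). Zfp536, a zinc finger repressor gene, had the smallest p: it stood at 6.41, 12.2 and 17.4 CPM in Gbx2 Pou3f3 cells and 26.3, 20.9 and 29.6 CPM in the others (difference -1.25, SE 0.16, edgeR adjusted p = 0.108, and between 1.15e-08 and 1.00 over the 8 settings). Smoc1 did not pass in Gbx2 Pou3f3 cells (-0.33, SE 0.17) and fell in the others (-1.22, SE 0.22, edgeR adjusted p = 0.0354), with an adjusted p of 0.126 for the difference.

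**Figure D5:**
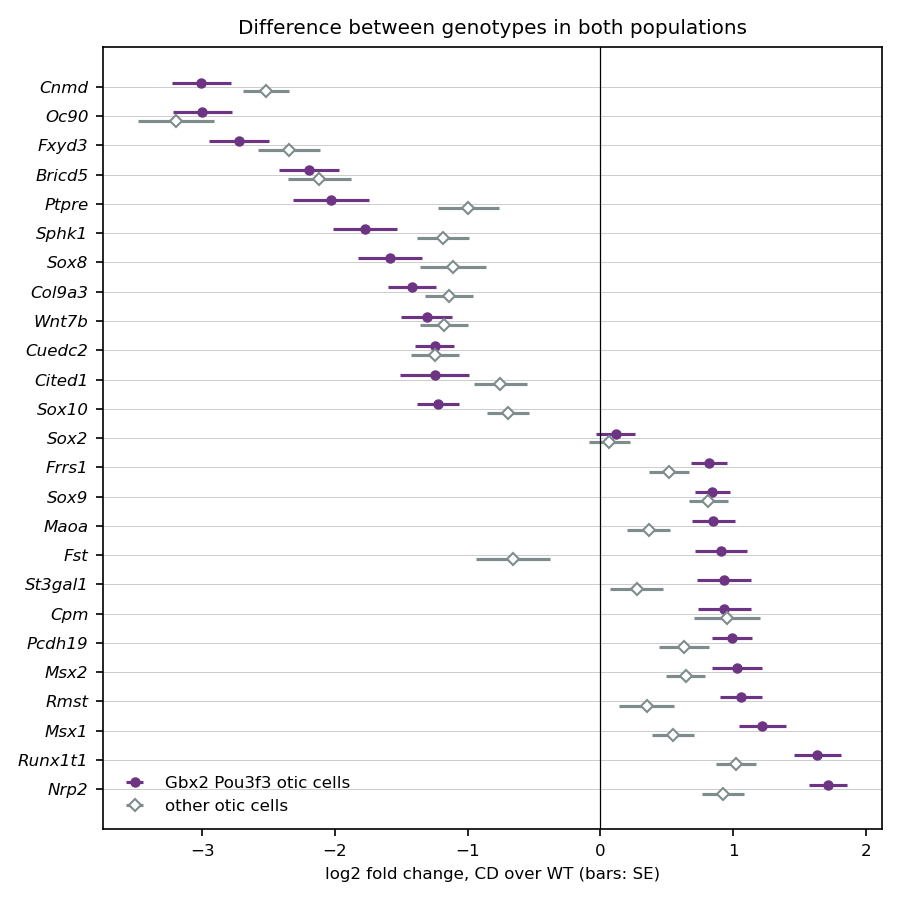
Log2 fold change of CD over WT (horizontal axis, bars are SE) in Gbx2 Pou3f3 cells (filled) and in other otic cells (open) for the same genes. The populations share their 3 libraries, and Fst is the row where the signs differ, at 0.91 and -0.66.

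Traces of other cell types were measured in the same sums. The 8 mesenchyme markers outside the rule summed to 30.7, 15.2 and 33.1 CPM (1 of 8 at 0), and to 1568, 1478 and 1269 CPM in the mesenchyme gate. Macrophage markers summed to 1.70, 7.90 and 20.7 CPM over 8 genes with none at 0 in every library, and Tyrobp, on that list, was called lower in CD on 1 UMI there. The 10 erythroid markers summed to 4531, 2976 and 3645 CPM, highest in CD, and Hbb-bh1 and Hba-a2 were called higher in CD. The 8 neural crest and glia markers, which include Sox10, summed to 139, 251 and 248 CPM, and the 10 neuroblast and neuron markers to 179, 138 and 307 CPM. Endothelial markers summed to 37.7, 21.3 and 47.8 CPM over 7 genes, hindbrain markers to 21.8, 27.1 and 12.8 CPM over 12 (1 at 0), and surface ectoderm markers to 106, 105 and 94.9 CPM over 8 (1 at 0), nearly all of it Wnt6. The 20 G2M genes summed to 4254, 3599 and 3647 CPM, and 18 lay above both WT libraries with none called. Of 13 mitochondrial genes 12 lay above both and 1 (mt-Nd3) was called higher. Over all genes tested, 42.6% lay above both WT libraries. Of 80 ribosomal protein genes 62 lay below both (24.1% of all genes did), with a median log2 fold change of -0.16 and none called. The median mitochondrial share of a cell was 3.49%, 2.38% and 3.16%. The part of these differences in the changes above was not tested.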

How the data were processed

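The 3 libraries were made with version 3.1 of the Chromium 3' kit, per the labels' protocols. Reads were processed with Cell Ranger 6.0 against build mm39, per the submitters' processing notes, and the matrix header gives 6.0.0. The deposited values are raw UMI counts (whole numbers) of 32285 features in each barcode, not normalized by the authors. The members and gene lists were chosen with earlier results of these data known.

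Barcodes with at least 1000 genes and at most 10% mt- UMIs were kept (8548, 6564 and 11018 in CD, WT replicate 1 and WT replicate 2), and the gates of the report were applied to the raw counts. Scrublet in scanpy 1.11.5 (expected rate 5%) called doublets, which were removed only in an alternative. Barcode sequences shared with another library numbered 40, 27 and 40. Counts were summed per library over Gbx2 Pou3f3 cells (13566053, 14932152 and 7578497 UMIs) and over other otic cells. The sums were tested with edgeR 4.0.16 in R 4.3.3 (TMM scaling, filterByExpr, quasi-likelihood test, Benjamini-Hochberg adjustment over all genes tested, threshold 0.05). The prior added 16.2 degrees of freedom to the 1 residual. Each SE was derived from the fitted log2 change and its F statistic (change over root F). The difference between populations was tested as an interaction term, library being the block. A chi-square comparison of the WT sums over 14370 genes gave a value of 8.22 for each degree of freedom, far from the 1 of a library deposited again. On simulated counts for 14080 genes, the test of CD against WT recovered 89.5% of 200 genes changed 2-fold, with 2 false calls. It recovered 100% of genes changed 4-fold, with 10 false calls. The simulation gave all genes the same dispersion and the WT pools equal means, and changed only genes of at least 10 CPM. It checks that the code runs as meant and does not measure error rates for the real pools.

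Named genes were the marker and gate genes and the genes Sox9, Sox10, Sox8 and Sox2. To these were added up to 12 passing genes each way that averaged 10 CPM or more and differed from either WT library by more than the WT libraries differed. The rule also took up to 15 genes each way of at least 2-fold in every library, up to 4 passing or 2-fold genes per list (otherwise 2 as values) and 3 genes for the interaction. Predicted, mitochondrial, ribosomal protein, haemoglobin and sex-linked genes were left out of the rankings; the remaining genes named are given as examples chosen after their values were seen. Alternatives were DESeq2 1.42.0, its size factors in edgeR, no gene filter, an equal number of cells per library, thresholds of 3 and 5 markers, at most 5% mt- UMIs, removal of doublets, thinning to 5000 UMIs and leaving out a library. Thinning to 10000 UMIs and DESeq2 for the interaction were added after seeing the data. Intervals on shares are exact (Clopper-Pearson, 95%). A withheld item that the rule names is not reported here.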

Additional observations from a re-analysis of the deposited data

How the results depend on the processing

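In Gbx2 Pou3f3 cells the count of 66 genes became 29 with DESeq2, 42 with its size factors in edgeR, 34 with equal cell numbers, 22 at 3 or more markers, 34 at 5 or more, 32 at 5% mt- UMIs, 256 without doublets, 22 at 10000 UMIs and 0 at 5000 UMIs (an edgeR test of 1539 genes). Without a gene filter it was 56. All of the 66 that could be tested kept their direction, except at 10000 UMIs (49 of 51) and at 5000 UMIs (6 of 9). The exceptions were Fst (-0.35) and Msx2 (-0.40) at 10000 UMIs and Gm10076 (0.073), Ppdpf (0.029) and Prxl2a (0.46) at 5000 UMIs. In other otic cells the count of 50 became 54 with DESeq2, 77 with its size factors and 200 without a gene filter. For the difference between populations, the count of 0 became 1 with DESeq2 size factors, 44 and 86 at 3 and 5 markers, 7 without doublets, 100 without a gene filter and 2 at 10000 UMIs. The 49 genes of at least 2-fold in every library became 135 at 5000 UMIs and 78 at 10000 UMIs, sharing 32 and 42 of the 49, and ran from 61 to 65 with 1 library left out. The ratio of shares ran from 0.998 to 2.22 with 1 WT library left out and stayed within 1.33 to 1.51 under the other settings. The cause of these moves was not tested. Against 1 WT library alone all 66 genes kept their direction, and the 4 that moved by over 1.5 times without WT replicate 1 (Evx1os, Tyrobp, Adamts18 and Gm10457), 1 of which (Tyrobp) also did without WT replicate 2, were all under 10 CPM. No paired analysis was possible because CD and WT share only replicate number 1.

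Thinned cells are few, and thinning to 5000 UMIs left 15, 13 and 13 cells, so this setting says little about single genes. With 1 CD pool, genes of a few CPM rest on few UMIs.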

Other observations

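Some genes that changed in CD fell outside the rule for named genes and were chosen here after their values were seen. Gad2, which makes GABA, stood at 10.7 CPM in CD against 1.41 and 0.924 CPM in Gbx2 Pou3f3 cells and rose (log2 change of 3.07 with SE 0.36, edgeR adjusted p = 0.000215). The same gene stood at 6.33 CPM against 0.869 and 0.934 CPM in other otic cells. Dlx1 and Dlx2, neighbouring homeobox genes, rose by 1.70 and 1.47 (edgeR adjusted p = 0.0337 and 0.0428), from levels of 2.21 to 6.20 CPM in WT. Their calls held under 2 and 1 of 8 other settings. Cdkn1c, which encodes the cell cycle inhibitor p57, stood at 519 CPM in CD against 954 and 1039.8 CPM and fell by 0.99 on the log2 scale (SE 0.13, edgeR adjusted p = 0.000525). It lay below both WT libraries at all 7 marker numbers. Cdkn1a, the related inhibitor gene that was high in Gbx2 Pou3f3 cells of every library, did not pass (0.10, SE 0.13). The claudin genes Cldn22 (1.03 CPM against 7.23 and 10.8 CPM) and Cldn10 (2.58 CPM against 7.84 and 7.79 CPM) also fell, with edgeR adjusted p of 0.000823 and 0.0381. The Cldn22 call held under 8 of 9 other settings and the Cldn10 call under 1 of 8.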
